A study of Mus musculus with 16 samples.

Results

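The 45 genes described here encode histone acetyltransferases and the scaffolds of their complexes, coactivators of nuclear receptors, subunits of corepressor complexes, bromodomain proteins, subunits of SWI/SNF remodelers and histone methyltransferases. They were taken as a fixed list of symbols, and the question put to them was whether trichostatin A lowers genes of this kind as a group. A probe set carrying the gene's symbol alone was found for 44 of the 45, all 44 passed the filter on signal, and 11481 genes were tested in all. Ncor1 was not analysed here. Messenger RNA of 4 lines of mouse embryonic fibroblasts was read on 16 Affymetrix arrays, so that a line under a treatment is a single array. The fibroblasts were taken from e14.5 embryos. All 4 lines were given Cre, the recombinase that removes conditional (flox) alleles, by adenovirus at passage 3, and were then grown to expand 100 fold or more. The 2 control lines were flox1 (CBP +/flox) and flox2 (p300 +/flox). The 2 triCH1 lines were triCH1flox1 (CBP CH1/flox; p300 CH1/CH1) and triCH1flox2 (CBP CH1/CH1; p300 CH1/flox), where CH1 stands for an allele with a deletion in the CH1 domain, a region of CBP and p300 that binds transcription factors. In normoxia and before reaching confluence, each line was given the solvent ethanol as vehicle, trichostatin A (TSA), which inhibits histone deacetylases, at 100 ng/ml, the iron chelator dipyridyl (DP) at 100 µM, or TSA and then DP 30 min later, and RNA was taken after 3 h. The 2 lines of a class thus differ in genotype, and every line had received Cre. No line was grown in more than 1 culture per treatment as far as the labels say. The p-values of a treatment therefore rest on how unlike the 2 lines of a class were in their changes between treatments, pooled over treatments. A constant difference in level between the 2 lines is taken out by the fit. A difference between the classes in the change does not enter that spread.

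Lysine acetylation of histones is written by acetyltransferases, read by bromodomains and erased by deacetylases, which act within corepressor complexes such as Sin3, NuRD and CoREST. Acetyltransferases work in large assemblies, among them the Tip60 complex, whose scaffold includes Epc1, Epc2 and Trrap. SWI/SNF remodelers use the energy of ATP to move nucleosomes and carry bromodomains of their own, and the methyltransferases of the Kmt2 family mark promoters and enhancers. TSA blocks the class of deacetylases that depend on zinc.

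The arrays had median signals of 103 to 153.8, with 36.8% to 42.6% of probe sets at a signal of 200 or more. For flox1 with vehicle, the ratio of 3' to 5' signal was high: Gapdh gave 2.59, where 15 arrays gave 0.907 to 1.26, and actin gave 2.07, where these gave 1.29 to 1.63. The probe set for 18S ribosomal RNA was high on the same array, at 10717.8, and for flox2 with DP, at 7428; elsewhere it lay between 981 and 3147. All 12 fibroblast markers looked up passed the filter, against 0 of 5 for endothelium, 2 of 6 for macrophages, 3 of 5 for epithelium, 4 of 5 for neural cells and 2 of 4 for skeletal muscle; the part of other cell types in the results was not tested. Of the 44 measured genes, 41 had a signal of at least 200 on all 16 arrays. Smarcd1 reached it on 5 arrays and Kat8 on 12, so their changes rest on dim spots. Kat6b reached it on 15 and was lowest for triCH1flox1 with TSA, at 102.6.

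With TSA, 21 of the 44 genes were lower and 4 were higher than with vehicle at an adjusted p under 0.05 (limma, Benjamini-Hochberg over all genes tested). That is 47.7% lower and 9.09% higher, where over all 11481 genes 12.5% were lower and 15.8% higher. The median change was -0.33 on the scale of log2(signal + 50), on which all changes here are given, and 35 of the 44 fitted changes were negative; over all genes the median was 0.03. The median change of the 44 genes was -0.39 in flox1, -0.33 in flox2, -0.35 in triCH1flox1 and -0.36 in triCH1flox2 (SD 0.0282, n = 4 lines). Of the 44 genes, 23 were lower in 4 of 4 lines and 5 higher in 4 of 4, against 18.6% and 22.5% of all genes. Without the flox1 vehicle array, 17 of the 44 were lower and 4 higher, where 10.7% of all genes were lower. Without all 4 arrays of flox1, 13 were lower (29.5%, against 9.08% of all genes), and without those of flox2, 12 (27.3%, against 9.25%). The signal of an array is scaled as a whole, so that fewer cells of a type and less RNA per cell cannot be told apart.

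**Figure D1:**
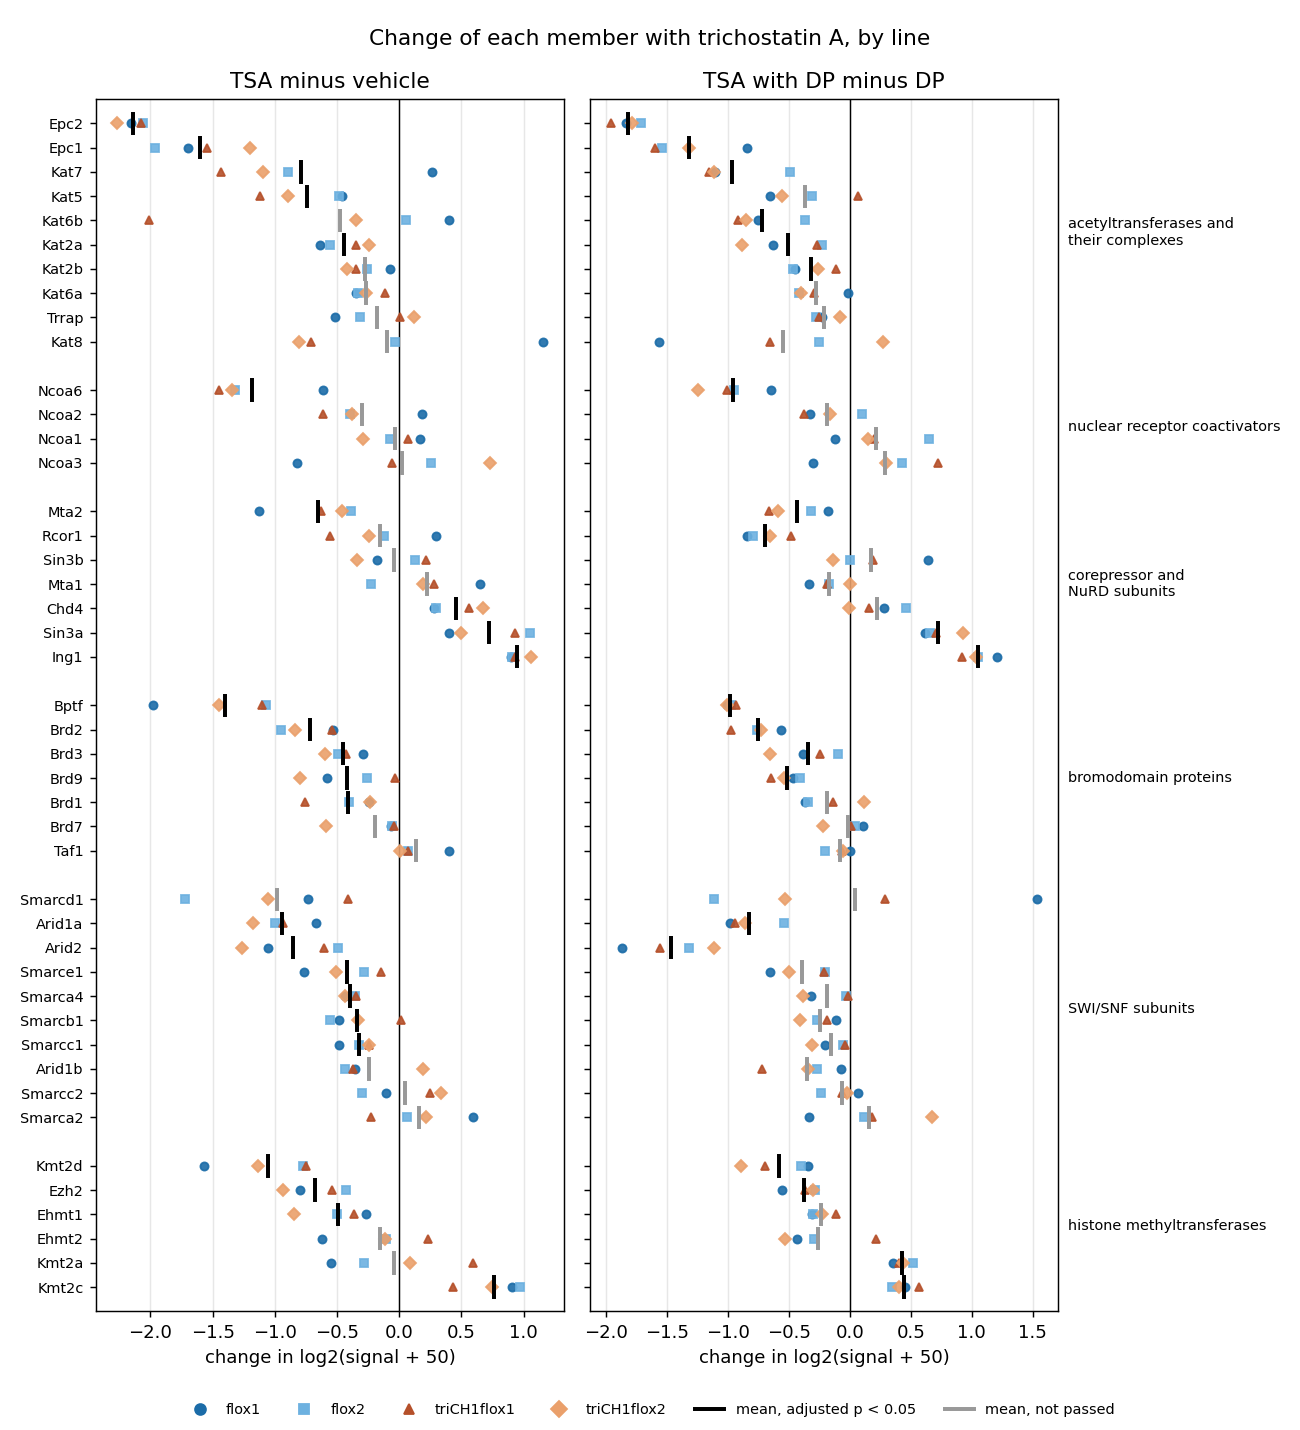
Change of each of the 44 genes with TSA, on the left against vehicle and on the right in cells that also received DP, as the difference in log2(signal + 50) per line (points) with the mean of the 4 lines (bar, black where the adjusted p was under 0.05 and grey otherwise). Genes stand by role and then by change; Epc2 lies lowest at a mean of -2.14 and Ing1 highest at 0.95 on the left.

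Among the acetyltransferases and their scaffolds, 5 of 10 genes were lower with TSA and 0 higher, with a median change of -0.46. This count and those by role below stand beside 12.5% of all genes lower and 15.8% higher. Epc2, a scaffold of the Tip60 complex, had vehicle signals of 1266, 1255, 1199 and 1370.2 in flox1, flox2, triCH1flox1 and triCH1flox2, the order used for all 4 values below, and signals of 245, 263, 246 and 246 with TSA. The 2 groups lay far apart, at 1273 ± 71.3 and 249.9 ± 8.96 (mean ± SD, n = 4 lines), and the 4 TSA arrays differed little from each other. The change of Epc2 was -2.14 (SE 0.131, 4.41-fold lower, adjusted p = 2.58e-08). Its paralog Epc1 read 1471, 1343, 1375 and 1456 with vehicle and 419.6, 307, 439 and 607 with TSA, a change of -1.60 (SE 0.141, 3.03-fold lower, adjusted p = 6.06e-07). All 4 lines fell, by most in flox2 and by least in triCH1flox2. Kat7 (Hbo1), an acetyltransferase of histones H3 and H4, read 650, 1197, 1444 and 1101 with vehicle and 793, 620.1, 503 and 488 with TSA. Its flox1 pair rose, from the lowest of the vehicle values, while the other 3 lines fell, and the groups overlapped. The fitted change of Kat7 was -0.79 (SE 0.190, 1.73-fold lower, adjusted p = 0.00493); it was -1.04 without the flox1 vehicle array (adjusted p = 0.000517), -0.50 without flox2 (adjusted p = 0.0833) and -0.71 without triCH1flox1 (adjusted p = 0.055). Kat5 (Tip60), the catalytic subunit of the complex that Epc1 and Epc2 hold together, read 514, 518, 531 and 451 and then 359, 356, 218 and 220.4, with no overlap and with the triCH1 lines lowest under TSA. The change of Kat5 was -0.74 (SE 0.210, 1.67-fold lower, adjusted p = 0.0145), and the adjusted p was 0.0815 without flox1 and 0.0785 without flox2. Kat2a (Gcn5), the acetyltransferase of SAGA, changed by -0.44 (SE 0.137, 1.36-fold lower, adjusted p = 0.0223), and this call was lost on leaving out each of the 4 lines in turn. The remaining 5 did not pass the test, with changes of -0.48 for Kat6b, -0.28 for Kat2b, -0.27 for Kat6a, -0.18 for Trrap and -0.10 for Kat8.

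Among the 4 nuclear receptor coactivators, 1 was lower with TSA and 0 higher. That gene was Ncoa6, which works with Kmt2c and Kmt2d complexes at hormone-responsive genes. It read 953, 1284, 1526 and 1339 with vehicle and 605, 483, 526 and 496 with TSA. The groups did not overlap, and flox1 moved least. The change of Ncoa6 was -1.18 (SE 0.142, 2.27-fold lower, adjusted p = 1.31e-05). The 3 members of the p160 family, which bridge nuclear receptors to CBP and p300, did not pass, with -0.30 for Ncoa2, -0.03 for Ncoa1 and 0.03 for Ncoa3, and for each of these the lines differed in sign.

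The corepressor and NuRD subunits held 3 of the 4 genes that rose. Of 7 genes measured, 3 were higher and 1 lower, with a median change of 0.22. Ing1, a reader of methylated histone H3 within the Sin3 deacetylase complex, read 1516, 1702, 1651 and 1671 with vehicle and 2868, 3242, 3188 and 3549 with TSA. Every TSA array lay above every vehicle array (3212 ± 279 against 1635 ± 82.2, SD, n = 4 lines), and the 4 lines changed alike. The change of Ing1 was 0.95 (SE 0.0911, 1.93-fold higher, adjusted p = 1.53e-06). Sin3a, the scaffold of that complex, read 653, 501, 497 and 681 and then 879, 1093, 992 and 981, a change of 0.72 (SE 0.143, 1.65-fold higher, adjusted p = 0.00119). The groups of Sin3a did not overlap, with larger rises in flox2 and triCH1flox1. Chd4, the ATPase of NuRD, read 1498, 1471, 1609.8 and 1358 and then 1835, 1822, 2399 and 2199, a change of 0.46 (SE 0.121, 1.37-fold higher, adjusted p = 0.00956), with an adjusted p of 0.0601 without flox1 and 0.0604 without flox2. Mta2, another NuRD subunit, moved the other way, from 1054, 1105, 1487 and 1070.1 to 455, 831, 946 and 766. The fall of Mta2 was largest in flox1 and came to -0.65 (SE 0.152, 1.57-fold lower, adjusted p = 0.00403) over the lines; without flox1 it was -0.47 (adjusted p = 0.0925). Rcor1 of the CoREST complex (-0.16), Sin3b (-0.04) and Mta1 (0.22) did not pass.

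Of the 7 bromodomain proteins, 5 were lower with TSA and 0 higher. Bptf, the largest subunit of the NURF remodeler, read 4489, 3264, 3670.5 and 4084 with vehicle and 1098, 1529, 1682 and 1465 with TSA. All lines fell, flox1 most, and the groups did not overlap (3877 ± 528 against 1443 ± 248, SD, n = 4 lines). The change of Bptf was -1.40 (SE 0.125, 2.64-fold lower, adjusted p = 6.64e-07), and -1.25 without the flox1 vehicle array (adjusted p = 2.86e-06). Brd2, of the BET family that binds acetylated histones at active genes, read 3357, 3210, 3765 and 3099.8 and then 2312, 1638, 2569 and 1716, a change of -0.71 (SE 0.111, 1.64-fold lower, adjusted p = 0.000145). Its groups lay apart. Smaller falls were those of Brd3 (-0.45, adjusted p = 0.0124), Brd9 of SWI/SNF (-0.42, adjusted p = 0.0483) and Brd1 of the Kat6 and Kat7 complexes (-0.41, adjusted p = 0.0312). Each of these 3 lost its call on leaving out 2 or more lines in turn, and Brd9 and Brd1 also without the flox1 vehicle array. Brd7 (-0.19) and Taf1 of TFIID (0.14) did not pass.

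Of the 10 SWI/SNF subunits, 6 were lower with TSA and 0 higher, with a median change of -0.37. Arid1a, a subunit of the BAF form that binds DNA, read 1511, 1725, 1943 and 2129.9 with vehicle and 931, 840.3, 995 and 916 with TSA. The TSA arrays lay close together and well under the vehicle arrays, and the change was -0.94 (SE 0.117, 1.92-fold lower, adjusted p = 1.77e-05). Arid2, the counterpart in the PBAF form, read 1828, 1206, 1240.4 and 2254 and then 856, 843, 801 and 909. Its vehicle values were spread, with flox1 and triCH1flox2 high, whereas the TSA values were alike; the change was -0.85 (SE 0.167, 1.80-fold lower, adjusted p = 0.00105). The ATPase Smarca4 (Brg1), went from 4117, 4101, 4174 and 3825 to 3036, 3195, 3268 and 2808, a small fall that was nearly equal in the 4 lines, of -0.39 (SE 0.0925, 1.31-fold lower, adjusted p = 0.00421). The core subunits Smarce1, Smarcb1 and Smarcc1 changed by -0.42, -0.34 and -0.32, with adjusted p of 0.0406, 0.0208 and 0.0402. Their calls were lost on leaving out single lines, flox1 in each case, and for Smarce1 and Smarcc1 also without the flox1 vehicle array. Smarcd1 (-0.98, SE 0.462), Arid1b (-0.24), Smarcc2 (0.05) and the other ATPase, Smarca2, (0.16) did not pass.

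Of the 6 histone methyltransferases, 3 were lower with TSA and 1 higher. Kmt2d (Mll4), which methylates histone H3 at enhancers, read 1676, 1219.6, 1389 and 1431 with vehicle and 532, 694, 805 and 625 with TSA, a change of -1.06 (SE 0.144, 2.08-fold lower, adjusted p = 4.45e-05). Its closest relative Kmt2c (Mll3) went the other way, from 477, 645, 712 and 766 to 942, 1314, 978 and 1315, a change of 0.76 (SE 0.133, 1.70-fold higher, adjusted p = 0.000406). In both genes the TSA arrays lay wholly on one side of the vehicle arrays. The flox1 vehicle array, with its high ratio of 3' to 5' signal, held the highest signal of Kmt2d and the lowest of Kmt2c. Both calls were kept without that array. Ezh2, the catalytic subunit of the repressive complex PRC2, read 2027, 1759, 2082 and 2270.5 and then 1146, 1298, 1414 and 1166, a change of -0.67 (SE 0.113, 1.59-fold lower, adjusted p = 0.000290). Ehmt1 (Glp) changed by -0.49 (SE 0.122, 1.41-fold lower, adjusted p = 0.00605), a call lost without flox2 and without triCH1flox2, while its partner Ehmt2 (G9a) at -0.15 and Kmt2a (Mll1) at -0.04 did not pass.

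**Figure D2:**
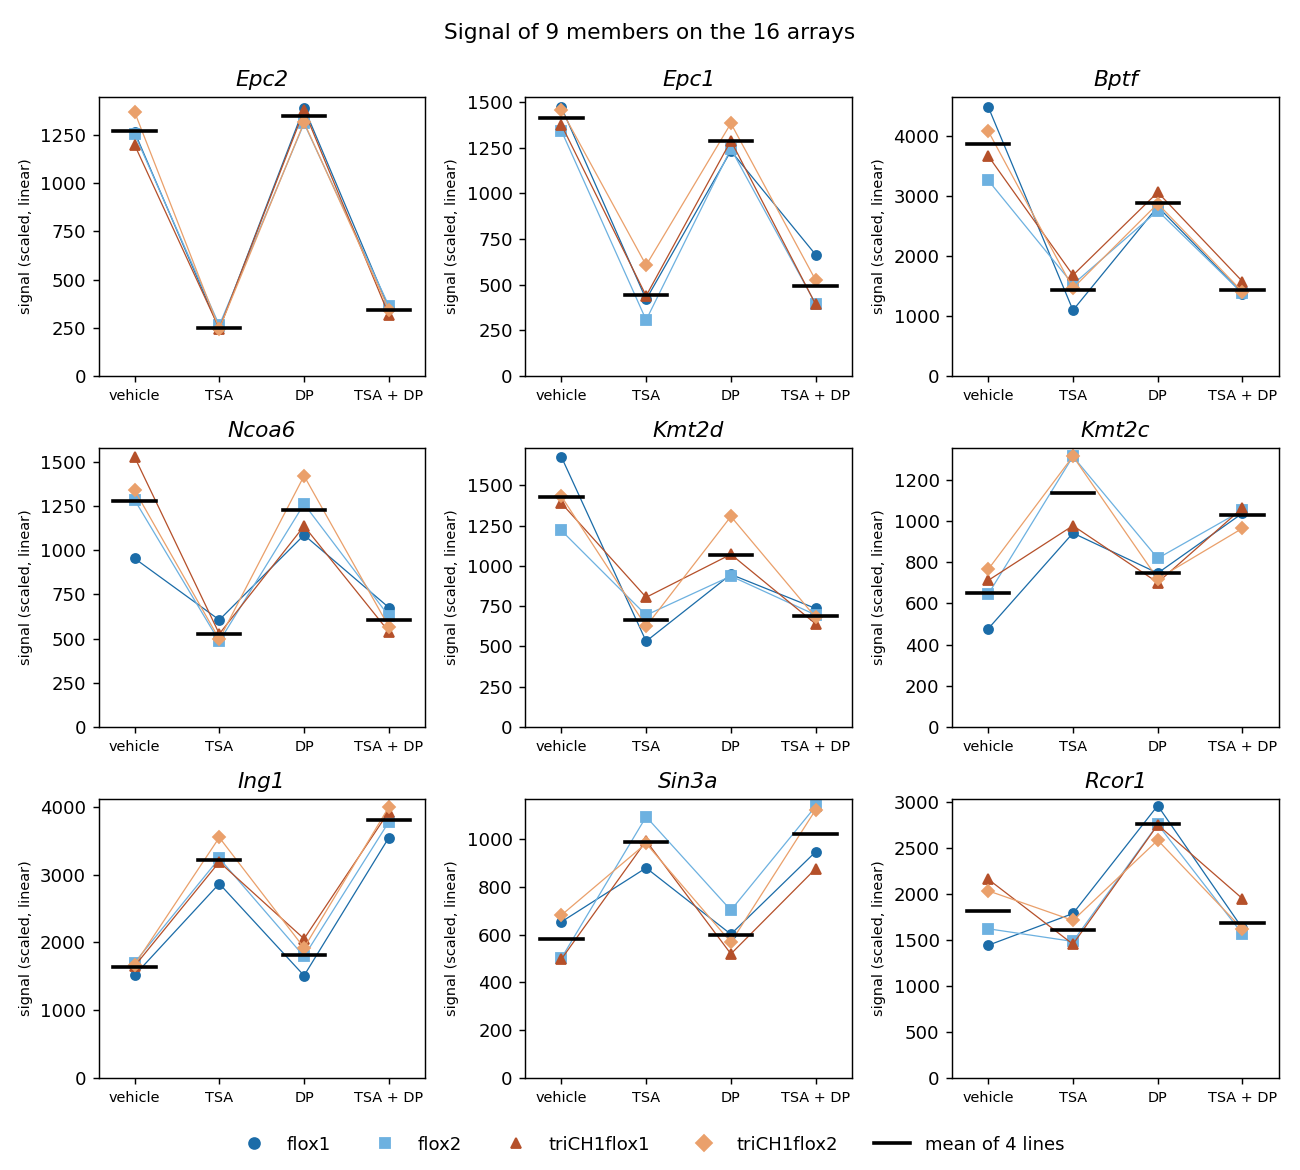
Signal (scaled, linear axis from 0) of 9 of the genes on the 16 arrays by treatment, with points for the lines joined across treatments and a bar for the mean of 4 lines. Epc2, Epc1, Bptf, Ncoa6 and Kmt2d are low on both kinds of TSA array, Kmt2c, Ing1 and Sin3a are high on them, and Rcor1 is high on the 4 DP arrays alone, at a mean of 2760.

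The promoters of Epc2, which fell most, and of the pair Kmt2d and Kmt2c, which moved apart, are shown as the 250 bases before the RefSeq start in the GRCm38.p6 assembly, with GC boxes in capitals. They lie at chr2:49451236-49451485 on the plus strand, chr15:98871206-98871455 on the minus strand and chr5:25498784-25499033 on the minus strand, each written 5' to 3' toward the gene.
Epc2: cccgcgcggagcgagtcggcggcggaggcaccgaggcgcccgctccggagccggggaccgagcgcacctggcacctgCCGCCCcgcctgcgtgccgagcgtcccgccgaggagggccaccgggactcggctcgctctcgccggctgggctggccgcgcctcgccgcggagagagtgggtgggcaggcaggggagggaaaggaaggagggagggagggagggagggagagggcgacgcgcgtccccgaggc
Kmt2d: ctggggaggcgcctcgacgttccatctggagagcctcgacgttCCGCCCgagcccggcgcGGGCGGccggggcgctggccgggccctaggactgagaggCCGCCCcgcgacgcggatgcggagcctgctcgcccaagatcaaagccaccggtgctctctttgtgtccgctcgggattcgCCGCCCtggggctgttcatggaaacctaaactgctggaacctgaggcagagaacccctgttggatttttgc
Kmt2c: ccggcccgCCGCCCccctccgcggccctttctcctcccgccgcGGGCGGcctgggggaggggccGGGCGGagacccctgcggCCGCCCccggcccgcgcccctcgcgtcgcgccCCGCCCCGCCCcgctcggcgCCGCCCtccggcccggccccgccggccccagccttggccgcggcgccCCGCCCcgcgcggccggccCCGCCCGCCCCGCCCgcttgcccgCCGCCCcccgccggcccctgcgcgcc
The GC box was searched as GGGCGG on both strands, with overlapping matches counted, and occurs 1 time for Epc2, 4 times for Kmt2d and 12 times for Kmt2c. Of the 44 genes, 38 had a promoter in the RefSeq table, with 53 windows in all; Kat6a, Epc1, Ncoa2, Ncoa3, Smarce1 and Arid2 were not matched. The GC box was in 81.1% of these 53 windows, against 32.7% of all 32851 windows of that length. All windows here means those of 27025 genes in the RefSeq table, whether or not they were tested on these arrays. By change with TSA, it was in 69.6% of the 23 windows of 18 genes that were lower. It was in 10 of 10 windows of the 4 genes that were higher and in 85% of the 20 windows of those that did not pass. The CCAAT motif, on both strands, was in 26.4% of the 53 windows and 33.8% of all windows. The median GC content was 67.6% for the 53 windows and 52.4% for all windows. Several windows belong to 1 gene, and these shares are a description.

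For paralogs, the change with TSA of one gene was subtracted from that of the other within each line, so that every value here is a difference between 2 changes and not between levels. Of 15 pairs, the largest difference in change was that of Kmt2c minus Kmt2d, at 1.82 (SD 0.532, n = 4 lines), positive in 4 of 4 lines, and with DP present it was 1.03, again positive in 4 of 4. Without DP it was largest in flox1, whose vehicle array had the high ratio of 3' to 5' signal. The changes of Epc1 and Epc2, which both fell, differed by 0.54 (SD 0.401; 0.50 with DP), those of Arid1a and Arid1b by -0.70 (SD 0.459; -0.48 with DP) and those of Brd2 and Brd3 by -0.26 (SD 0.142; -0.41 with DP), each first gene minus second and of 1 sign in 4 of 4 lines both without and with DP. The difference in change was of 1 sign in 4 of 4 lines without DP, but in fewer with it, for 4 other pairs. It was 0.87 (SD 0.674) for Mta1 minus Mta2 and 0.26 with DP (3 of 4 lines positive), and 0.76 (SD 0.151) for Sin3a minus Sin3b and 0.55 with DP (3 of 4). It was 0.56 (SD 0.381) for Smarca2 minus Smarca4 and 0.34 with DP (3 of 4), and -0.37 (SD 0.246) for Smarcc1 minus Smarcc2 and -0.0870 with DP (2 of 4). Among the other pairs with a member that passed, the difference in change was -0.34 for Ehmt1 minus Ehmt2 (3 of 4 lines negative) and 0.0237 with DP, -0.17 for Kat2a minus Kat2b (2 of 4) and -0.18 with DP, and 0.23 for Brd7 minus Brd9 (1 of 4) and 0.50 with DP. With 4 lines an exact two-sided sign-flip permutation test cannot go below p = 0.125, which is 0.234 after adjustment over the 15 pairs, so that 0 of 15 could pass.

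Several genes were read by more than 1 probe set on the same arrays. Of the 25 genes called with TSA, 18 had another probe set that passed the filter, and 27 of these 30 other probe sets had the same sign of mean change. The 3 of opposite sign belonged to Brd3, Kat2a and Smarcc1 and had mean changes of 0.09, 0.00486 and 0.01. For Ing1 the second probe set gave 1.20 beside 0.95, and for Arid1a -0.97 beside -0.94. For Bptf the 3 others gave -1.13, -0.37 and -0.21 beside -1.40, the last from a dim probe set with a mean signal of 119.9. The 3 other probe sets of Kmt2c gave 0.62, 0.41 and 0.35 beside 0.76. Epc2, Ncoa6 and Kmt2d had 1 passing probe set each.

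The comparison of TSA with DP against DP alone repeated the TSA treatment on 8 arrays that the first comparison does not use. These arrays are of the same 4 lines, and both comparisons share a fit and its estimate of spread per gene. The repeat is thus within lines and not an independent one. Here 17 of the 44 genes were lower and 4 higher (38.6% and 9.09%, against 12.2% lower and 17.7% higher over all genes), with a median of -0.27. With each array centred on the median of all genes, 22 were lower and 2 higher, against 15.9% and 14% of all genes. Of the 21 genes lower without DP and the 17 lower with it, 14 were the same, which is 66.7% and 82.4% of those lists; over all genes 959 were lower in both, 67% and 68.5% of the corresponding lists. Ing1, Sin3a and Kmt2c were higher in both, and 0 of the 44 (0.148% of all genes) were called in opposite directions. The fitted changes had the same sign for 37 of the 44 genes, 84.1%, against 76.8% of all genes. Epc2 read 1392, 1310.4, 1377 and 1315 with DP and 353, 365, 317 and 345 with both, a change of -1.83 (SE 0.131, 3.54-fold lower, adjusted p = 7.79e-08). Arid2 fell here from 2248, 1838, 2248 and 1780.1 to 576, 706, 731 and 792, a change of -1.47 (SE 0.167, 2.77-fold lower, adjusted p = 6.73e-06). Both genes lay apart on the 2 kinds of array, with the values of Epc2 close together. On the arrays with both agents, Arid2 was lowest in flox1. Epc1 changed by -1.33 (SE 0.141, 2.51-fold lower, adjusted p = 3.73e-06). Bptf changed by -0.98 (SE 0.125, 1.98-fold lower, adjusted p = 2.00e-05), nearly equally in the 4 lines. Kat7 changed by -0.97 (SE 0.190, 1.96-fold lower, adjusted p = 0.000991), and here it fell in all 4 lines with no overlap of its groups. Ncoa6 changed by -0.96 (SE 0.142, 1.95-fold lower, adjusted p = 8.32e-05). Kat6b, which had not passed without DP, read 614, 432, 539 and 683 with DP and 344, 324, 261 and 356 with both, a change of -0.72 (SE 0.219, 1.65-fold lower, adjusted p = 0.0192). Its call was lost without flox1, without flox2 and with a term for the array series, described in the last section. Kat2b (-0.32, adjusted p = 0.0433), lost on leaving out any single line, and Rcor1, described with DP, were the other genes lower in this comparison alone. Kat5, Brd1, Smarca4, Smarcb1, Smarcc1, Smarce1 and Ehmt1 were called lower without DP alone, with changes here of -0.37, -0.19, -0.19, -0.25, -0.15, -0.39 and -0.24, and the test of the difference, a test of non-additivity, passed for none of the 44. Ing1 went from 1511, 1794, 2055 and 1921 to 3547, 3778, 3929.7 and 3998, a change of 1.05 (SE 0.0911, 2.08-fold higher, adjusted p = 4.47e-07), and Sin3a changed by 0.72 (SE 0.143, 1.65-fold higher, adjusted p = 0.00105). Every array with both agents lay above every DP array for these 2 genes. Kmt2c changed by 0.44 (SE 0.133, 1.36-fold higher, adjusted p = 0.0195). Kmt2a was higher in this comparison, at 595, 455, 555 and 569 with DP and 772, 670.1, 750.4 and 786 with both, 0.43 (SE 0.139, 1.34-fold higher, adjusted p = 0.0292). The calls of Kmt2c and Kmt2a were lost on leaving out each line in turn, which left 2 genes higher, and leaving out the DP array of flox2 did the same. Without flox1, 10 genes were lower here (22.7%, against 8.31% of all genes), and without triCH1flox2, 11 (25%, against 8%).

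**Figure D3:**
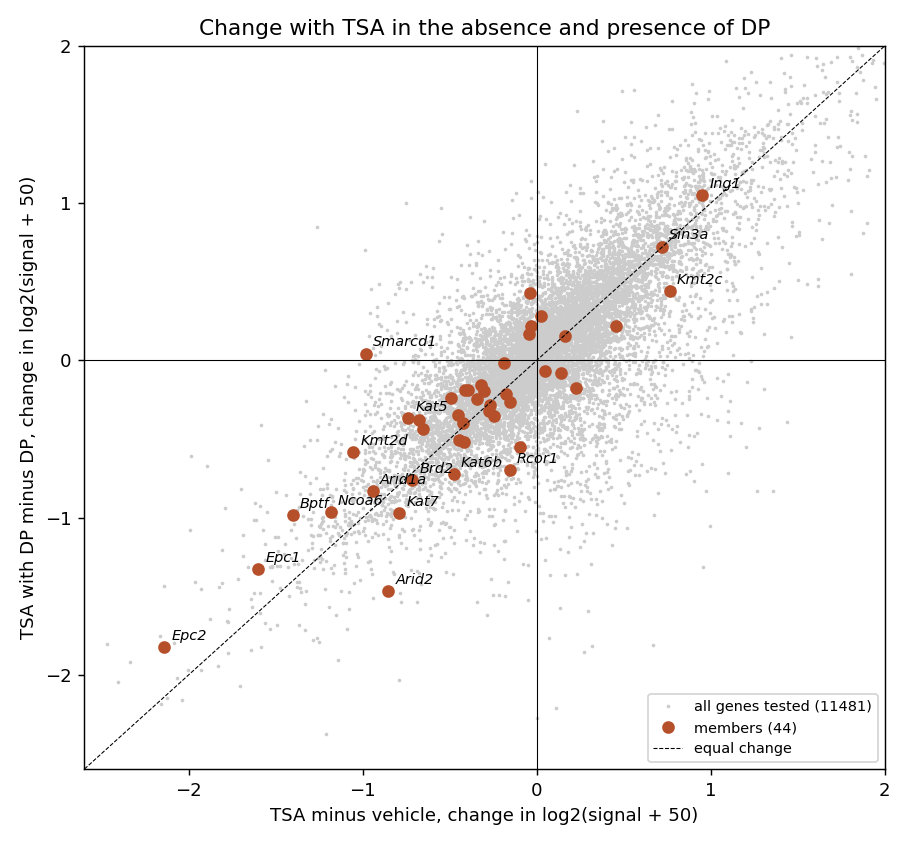
Fitted change with TSA against vehicle (horizontal axis) and with TSA plus DP against DP (vertical axis), both in log2(signal + 50), for the 44 genes (orange) and all 11481 genes tested (grey; those past the axis limits are not drawn), with a dashed line of equal change. The 2 axes share no array but come from the same lines. Of the 44 genes, 37 have the same sign on both (84.1%, against 76.8% of all genes), and Epc2 lies lowest on both axes among the 44.

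DP alone changed 1 of the genes. Rcor1, the CoREST scaffold that ties the demethylase Kdm1a to deacetylases, was the gene that passed of the 44 (2.27%, against 1.71% of all genes). It read 1441, 1620.1, 2158 and 2032 with vehicle and 2956, 2753, 2748 and 2581 with DP. Each DP array lay above each vehicle array. The difference was 1.01 and 0.75 in the control lines and 0.34 and 0.34 in the triCH1 lines, and the test between the classes did not pass, at -0.54 with an adjusted p of 0.979. The change of Rcor1 with DP was 0.61 (SE 0.109, 1.53-fold higher, adjusted p = 0.00428). It did not pass without flox1 (0.54, adjusted p = 0.128) or without triCH1flox2 (0.61, adjusted p = 0.0560), and its probe set of a kind that can read several transcripts, once left out, gave way to another with 0.25 (adjusted p = 0.418). The third passing probe set gave a mean change of 0.51 with DP (SD 0.165). Both of these other probe sets rose in every line. With TSA and DP together Rcor1 read 1624, 1563, 1947 and 1616, which is -0.70 (SE 0.109, 1.62-fold lower, adjusted p = 0.000148) against the same DP arrays. All 3 of its passing probe sets gave this last change alike, at -0.70, -0.70 and -0.68. Between TSA with DP and TSA alone, 0 of the 44 genes passed by limma, against 0.148% of all genes. At an unadjusted p under 0.05 there were 2 of the 44, against 5.35% of all genes.

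With both agents against vehicle, 18 genes were lower and 4 higher (40.9% and 9.09%, against 13.8% and 17.8% of all genes). This comparison shares its vehicle arrays with those of TSA and of DP. The 6 largest falls were those of Epc2 (-1.74), Epc1 (-1.45), Bptf (-1.40), Arid2 (-1.12), Ncoa6 (-1.01) and Kmt2d (-0.996). The 4 rises were those of Ing1 (1.20), Sin3a (0.76), Kmt2c (0.64) and Smarca2 (0.45, adjusted p = 0.0382), the last lost on leaving out any single line. Whether the change with both differed from the sum of the single changes was tested per gene, and 0 of 44 passed by limma, against 0.392% of all genes; at an unadjusted p under 0.05 there were 5, against 5.92% of all genes. The smallest adjusted p there was that of Rcor1, at -0.54 (adjusted p = 0.307).

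**Figure D4:**
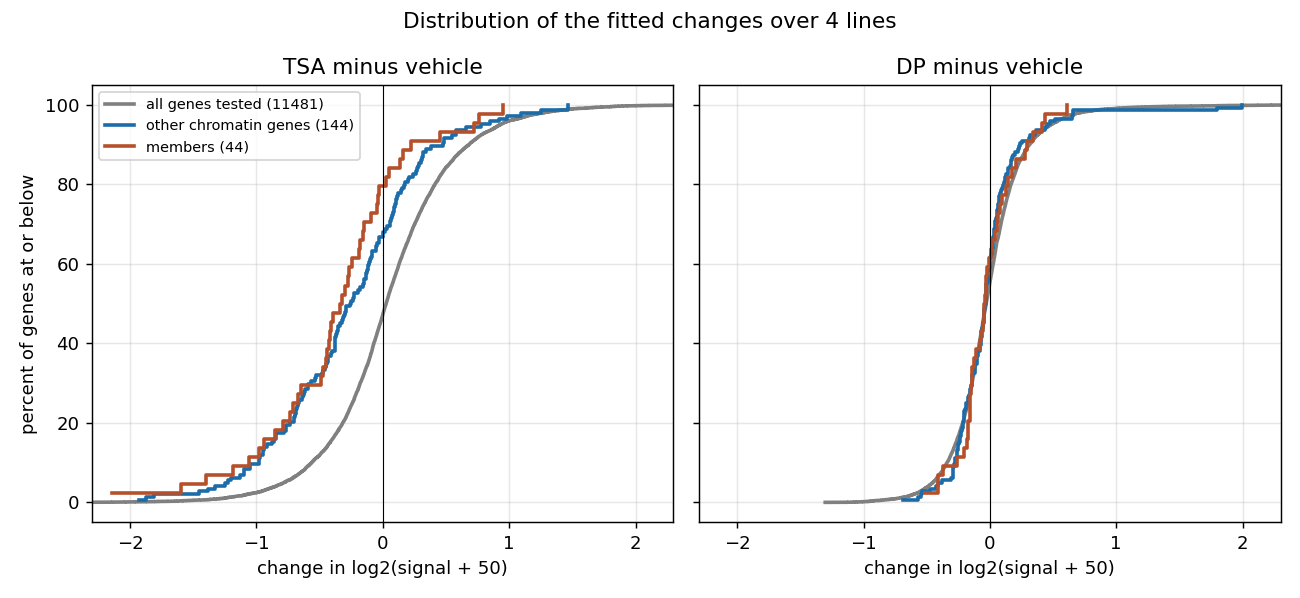
Percent of genes at or below each fitted change with TSA (left) and with DP (right), over 4 lines, in log2(signal + 50), for all 11481 genes tested (grey), 144 other chromatin genes (blue) and the 44 genes (orange); changes past the axis limits are not drawn. The 44 genes lie left of all genes with TSA, at a median of -0.33 against 0.03, and close to them with DP, at -0.04 against -0.03.

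The TSA change was compared between triCH1 and control lines for each gene, and 0 of 44 passed by limma, as did 0% of all genes. At an unadjusted p under 0.05 there were 4 of the 44, against 5.71% of all genes. The 4 were Kat6b (-1.41), Kmt2a (0.76), Kat7 (-0.95) and Rcor1 (-0.49), and the smallest adjusted p was 0.809. Kat6b changed by -2.015 in triCH1flox1, through its dimmest array, against 0.40, 0.05 and -0.35 in flox1, flox2 and triCH1flox2. The 95% interval of the difference between the classes had a half-width of 0.385 to 1.96, with a median of 0.577, and a difference smaller than its half-width cannot be told from 0. For Epc2 the difference was -0.06, with an interval from -0.62 to 0.49. For the change with DP, 0 of 44 genes differed between the classes by limma, against 0.0261% of all genes; at an unadjusted p under 0.05 there were 2, against 4.87% of all genes. On the means of the lines over treatments, 2 lines against 2, 0 of 44 passed by limma, against 0.157% of all genes. At an unadjusted p under 0.05 there was 1, Kat2b, at 0.37 (adjusted p = 0.385), against 10.6% of all genes. Xist was 5.07 higher and Eif2s3y, a gene of the Y chromosome, fell by 4.13 in the triCH1 lines, so that sex and CH1 cannot be told apart in comparisons of the classes.

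Of 161 other genes of the same complexes and families, 144 were tested, and with TSA 52 were lower and 13 higher, with a median of -0.25. That is 36.1% and 9.03%, against 12.5% and 15.8% of all genes. Partners of acetyltransferase complexes had 19 of 42 lower and 3 higher, other bromodomain proteins 9 of 16 and 0, other methyltransferases 8 of 19 and 0, other remodelers 8 of 27 and 2, and corepressor and NuRD partners 8 of 27 and 4. These last 4 are 14.8%, near the share of all genes that were higher. The other TFIID subunits had 0 of 13 lower and 4 higher. The largest falls with the same sign in 4 lines were those of Zmynd8 (-1.93), Msl1 (-1.88) and Kmt2e (-1.81), which are of the size of that of Epc2. The largest such rises were those of Ss18l1 (1.47), Sap30, a subunit of the Sin3 complex beside Sin3a and Ing1 (1.46), and Taf3 (1.25). Crebbp and Ep300, the genes of CBP and p300 that were altered in these lines, changed by -1.56 (adjusted p = 6.18e-07) and -1.59 (adjusted p = 7.40e-06) with TSA, between Epc1 and Bptf in size. The genes outside the list whose log2 signals followed Epc2 most closely over the 16 arrays were Mecom, Atf4 and Ints14 (Pearson's r of 0.979 each), and those that followed Ing1 were Ppat, Depdc7 and Sacm1l (0.976, 0.974 and 0.971). These values describe arrays that fall into those with and without TSA, and carry no test.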

How the data were processed

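Gene expression was measured on Affymetrix Mouse430_2 arrays. The deposited intensities are 1 value per probe set and array, made by the authors with the Affymetrix statistical algorithm and scaled to a target of 500, per the labels; the software version is not given in the sources used here. Here log2(intensity + 50) was taken. Probe sets were kept where 2 or more arrays reached 200, those with 1 gene symbol in GEO's platform annotation were named, and each gene was read from its brightest kept probe set by mean over arrays (11481 genes). limma (3.58.1, R 4.3.3) was fitted over all 16 arrays with 8 group means and the line within its class, since the 4 treatments of a line are the same cells (deviations of arrays of 1 line correlated at 0.161 to 0.328 in controls and 0.0770 to 0.320 in triCH1 lines), then eBayes with a variance trend and Benjamini-Hochberg adjustment over all genes, at 0.05. Residual degrees of freedom were 6, and 2 for the classes, which were compared on the means of lines. Paralogs were compared by exact sign-flip permutation. The fit was tested on simulated data. Depth has no meaning for arrays, and the number of arrays limits the precision. For a treatment, a limma p-value sets the change against how unlike the 2 lines of a class were in their changes between treatments. This spread is pooled over treatments and moderated across genes, and a constant difference in level between the 2 lines does not enter it. A difference between the classes in the change does not add to that spread. For Kat7 the SE with TSA was 0.190, and its changes in the 4 lines had an SD of 0.74. The SE is that of a mean and the SD that of single lines, so the 2 values cannot be set side by side in size.

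All measured genes are accounted for. Those past the threshold are given in full, up to 12 each way for TSA and 6 elsewhere, with paralogs of a gene that passed and the 3 largest changes each way among the other chromatin genes. The members, the other lists and the tests were chosen with earlier results of these data known. Promoters came from RefSeq.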

Additional observations from a re-analysis of the deposited data

How the results depend on the processing

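The treatment comparisons were refitted under 18 alternatives and the comparison of classes under 15; for the classes the fits without the replicate block, with array weights and with the array series could not be made on means of lines. Each of the 25 genes called with TSA kept its direction under all 18, and 13 kept the call; with TSA in DP these were 21 and 10. The same was not counted for all genes called, so these counts do not set the 44 genes apart. The median change with TSA, -0.33, was -0.26 with a gene's passing probe sets averaged, -0.37 without probe sets that can read several transcripts, -0.38 with arrays centred on their median and -0.36 with the array series as a term. The array series was read from the array names in the labels, which do not say whether it is a batch. Its smaller part held triCH1flox1 with TSA, with DP and with both, and flox2 with both, but no vehicle array. With this term Kat2a and Brd1 lost their calls with TSA, and Kat6b, Mta2 and Kmt2a theirs in DP. Centring gave -0.35 for TSA in DP and left 2 of the 44 genes higher there. Leaving out a line gave 12 to 17 genes lower with TSA, and in DP 10 to 13 lower and 2 higher. For some of these fits the share of all genes is given with the results above, and for the others it is not given. The number called over all genes also changed in such fits, as below, so a count without its share does not set the 44 genes apart. Leaving out the flox2 DP array left 2 genes higher in DP. With DP alone, 0 of the 44 genes passed without the probe sets that can read several transcripts, and 0 to 1 with a line left out. Between the classes 0 passed, or 1 without flox2; that fit sets flox1 alone against 2 triCH1 lines and assumes that it varies like them, and the gene is the dim Kat8, so the call supports nothing. Over all genes with TSA, 1432 lower and 1809 higher became 937 and 1134 without triCH1flox2; in DP, 1400 and 2037 became 919 and 1354 without triCH1flox2, and 1302 were higher without triCH1flox1. With DP alone, 196 became 124 with no variance trend, 111 without flox1 and 108 without triCH1flox2. Without the replicate block, 18 of the 44 genes were lower with TSA. The main fit had 21 lower, and the 12.5% of all genes that were lower belongs to that fit. The share of all genes without the block is not given here, so the 18 stands without its background. A line left out removes 4 arrays, and the cause of the other changes was not tested. The calls kept least often were on small changes, at probe sets that were not dim. With TSA, Smarcc1 (-0.32, mean signal 2764) kept its call under 6 of the 18 alternatives and Brd9 (-0.42, mean signal 789) under 7. Smarca4, at -0.39, kept its call under all 18. Among dim genes, Smarcd1 had a wide SE, at 0.462.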
